A study of Mus musculus with 3 samples.

Results

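The erythroid differentiation genes are a set of 8 genes: Tfrc, Slc4a1, Epb42, Rhag, Klf1, Car2, Alas2 and Ahsp. A gene was measured where a probe set, the group of array probes that reports 1 transcript, carried its symbol and no other. This held for 6 of the 8, among 22087 named genes on the array, and each of the 6 had 1 probe set. The probe set of Alas2 also carries another gene's symbol, so that Alas2 has no value here, and Ahsp was not analysed here. The samples were 3 sorted cell preparations from mouse tumours, all in the group labelled Dicer1 +/- Stroma. Dicer1 is the gene of an enzyme that processes microRNAs, and +/- stands for a heterozygous genotype. The label does not say whether the sorted cells carry this genotype or only the tumour cells do. Live cells (by DAPI) were kept when negative for PECAM1, an endothelial surface protein, and for tdTomato, a red fluorescent protein that marks the tumour cells of this model. The tumour model is called ASD in the series title and is not spelled out in the labels. The sources used here do not give the driver of tdTomato, the ages of the mice or the number of animals behind each sample. Tumours of wild-type Dicer1, with which the title contrasts this genotype, were not analysed here. The results are therefore levels, their spread over 3 samples and the order of the samples, with no comparison of genotypes and no p-value.

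Red blood cells develop in mouse marrow and spleen from progenitors that answer to erythropoietin. The erythroblast takes up transferrin-bound iron, builds haem and globin, and assembles a membrane in which an anion exchanger and the Rh proteins are tied to a spectrin skeleton. The nucleus is then expelled, and the young red cell keeps its RNA for a short time. Klf1 and Gata1 are transcription factors that switch on much of this programme, Gata1 through DNA words around the letters GATA and Klf1 through C-rich words known as CACC boxes. Not every gene of the programme is private to red cells, since Tfrc serves iron uptake in most dividing cells and Car2 also works in osteoclasts and in epithelia.

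The 250 bases before the annotated start of Klf1, Rhag and Epb42 are shown because these 3 genes lay nearest the detection limit and Klf1 and Rhag had the widest spread of the 6. Sequences are from RefSeq on GRCm38.p6, written 5′ to 3′ on the strand of the gene. Capitals mark each match, on either strand, to the words AGATAA or AGATAG or TGATAA or TGATAG.
Klf1, chr8:84901732-84901981, plus strand: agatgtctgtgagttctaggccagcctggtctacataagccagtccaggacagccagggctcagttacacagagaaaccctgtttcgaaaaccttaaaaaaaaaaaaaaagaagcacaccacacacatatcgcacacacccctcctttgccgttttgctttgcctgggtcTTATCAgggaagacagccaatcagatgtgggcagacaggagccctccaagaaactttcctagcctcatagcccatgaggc
Rhag, chr17:40810899-40811148, plus strand: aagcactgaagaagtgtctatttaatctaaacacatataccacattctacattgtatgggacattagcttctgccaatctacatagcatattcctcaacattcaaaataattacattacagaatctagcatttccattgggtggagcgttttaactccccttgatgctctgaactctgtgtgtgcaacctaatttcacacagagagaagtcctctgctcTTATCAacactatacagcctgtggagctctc
Epb42, chr2:121036878-121037127, minus strand: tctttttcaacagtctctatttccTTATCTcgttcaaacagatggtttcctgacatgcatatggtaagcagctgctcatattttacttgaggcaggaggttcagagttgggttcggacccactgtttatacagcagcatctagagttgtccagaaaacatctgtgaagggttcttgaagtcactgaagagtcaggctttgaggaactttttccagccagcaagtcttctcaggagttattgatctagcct

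Each of these windows holds 1 GATA word, which begins 80 bases before the start in Klf1, 31 in Rhag and 226 in Epb42. The RefSeq table held 5 of the 8 genes. Alas2 also had 1 GATA word, 86 bases before its start, and neither of the annotated starts of Tfrc had any. A GATA word thus stood in 4 of the 6 windows of these 5 genes. Over all 32851 windows of the same length 26.5% held one. A C-rich word, CCNCNCCC on either strand with N for any base, stood in 3 of the 6 windows, those of Alas2 and Tfrc and none of the 3 shown, against 45.9% of all windows. The 7 further lists of red cell genes had 81 windows, of which 30.9% held a GATA word and 72.8% the C-rich word. By list, a GATA word stood before 6 of 9 globin genes, 6 of 10 membrane genes, 5 of 11 transcription factors, 3 of 9 maturation genes, 2 of 6 haem enzymes, 2 of 9 iron genes and 1 of 7 signalling genes. Counted by gene in the same way, 8039 of all 27025 genes had a GATA word. A gene with several starts has several windows: by window it was 6 of 12 for the membrane list and 5 of 16 for the transcription factors. These matches describe letters in a window and say nothing of binding.

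Levels are log2 intensities as deposited, so that a difference of 1 is a factor of 2. Gene levels were not set against each other, because probe sets differ in brightness. A gene was called detected on an array when it stood above the 95th percentile of 1438 probe sets for olfactory, vomeronasal and taste receptors, which marks background at 5.16, 5.11 and 5.20 in samples 1, 2 and 3. Precision is limited by the number of arrays. Each SD is the spread between 3 samples, in which technical differences and differences between animals cannot be told apart. Sample 1 stood apart in sex-linked transcripts. Xist was at 9.78 against 3.43 and 3.49, and the Y-linked Eif2s3y at 3.86 against 8.51 and 8.71. This is the pattern of a female sample 1 and male samples 2 and 3. Sex thus cannot be told apart from other differences of sample 1. Markers listed with earlier results of these data known were set beside the stroma label. Of 8 fibroblast genes 8 were detected on every array, and 5 of 8 endothelial genes were as well, beside 60.5% of 20658 named genes. In RNA from a mixture of cells, fewer cells of a type and less RNA per cell cannot be told apart.

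Of the 6 measured genes, 5 were detected on every array, beside 60.5% of 20658 named genes. Klf1 was detected on 2 of 3. The range, the highest minus the lowest sample, ran from 0.36 to 1.04 over the 6 genes with a median of 0.42, beside a median of 0.31 over the 13636 genes detected on at least 1 array. It was above 1 for 1 gene, Rhag, as it was for 5.7% of the 13636. Car2, Epb42, Tfrc and Slc4a1 had ranges under 0.5, and Klf1 and Rhag had wider ones. No value was equal in any pair of arrays for the 6 genes.

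**Figure D1:**
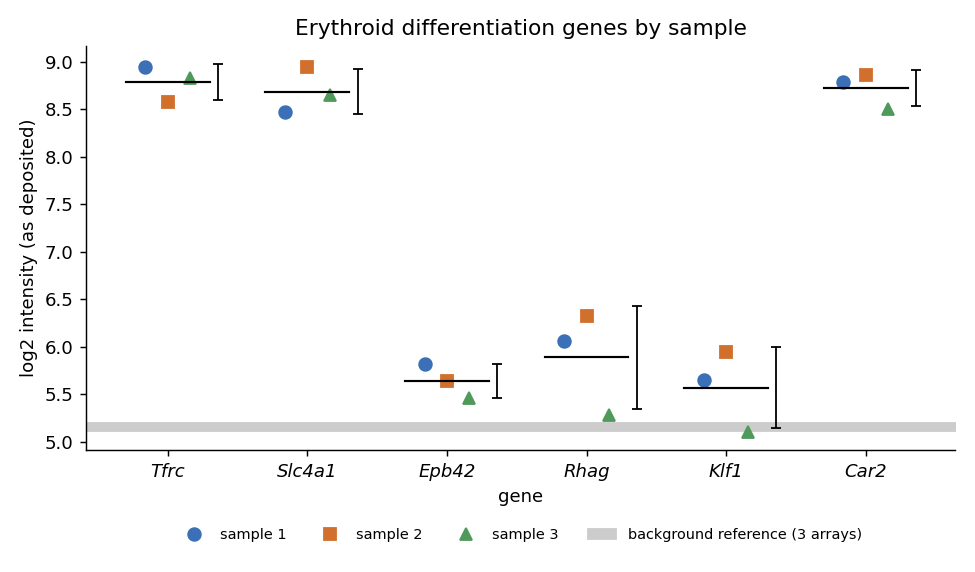
Log2 intensity of the 6 measured erythroid genes (y axis) in samples 1, 2 and 3 (points), with the mean as a line and the SD over 3 samples as a bar beside it; the grey band spans the background reference of the 3 arrays. Tfrc, Slc4a1 and Car2 stand at 8.47 or above in every sample, while Rhag at 5.28 and Klf1 at 5.11 in sample 3 lie at the edge of the band.

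Tfrc (gene ID 22042, probe set 17324835) encodes the transferrin receptor, the entry of iron into the erythroblast. Its log2 intensity was 8.94 in sample 1, 8.58 in sample 2 and 8.83 in sample 3, a mean of 8.78 ± 0.19 (SD, n = 3). Every value lay at least 3.46 above the background reference of its array. Sample 2 was the lowest, and samples 1 and 3 differed by 0.11, less than the SD. Genes of cell division had the same low sample: 7 of 9 measured were lowest in sample 2, beside 4003 of the 13636 genes detected on at least 1 array. Sample 2 was also the lowest for 6 of 8 endothelial and 4 of 7 signalling genes. Of the 9 division genes 6 were highest in sample 3, beside 32.8% of the 13636, while Tfrc was highest in sample 1. Mki67 was at 9.88, 9.65 and 10.07 and Top2a at 9.35, 9.12 and 9.44 in samples 1, 2 and 3. Cdk1 (8.15, 7.83 and 8.43), Mcm5 (8.04, 7.67 and 8.33) and Birc5 (7.92, 7.64 and 7.78) were also lowest in sample 2, and Aurkb (7.80, 7.92 and 8.36) was lowest in sample 1. The log2 of the summed intensity of these 9 genes was 12.27, 12.05 and 12.31, and its part in the Tfrc values was not tested.

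Slc4a1 (gene ID 20533, probe set 17270162) encodes band 3, the chloride-bicarbonate exchanger and chief integral protein of the red cell membrane. Its log2 intensity was 8.47, 8.94 and 8.65 in samples 1, 2 and 3, a mean of 8.69 ± 0.24 (SD, n = 3), and 3.31 or more above the reference. Sample 2 was the highest, 1.39-fold above sample 1. Its paralogues Slc4a2 and Slc4a3 spread less: Slc4a2 stood at 6.70, 6.79 and 6.82, and Slc4a3 at 6.07, 6.27 and 6.19. The bicarbonate cotransporter Slc4a4, at 5.80, 6.18 and 5.5, had a range of 0.67 with sample 2 again on top.

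Epb42 (gene ID 13828, probe set 17390371) encodes protein 4.2, which helps fasten band 3 to the skeleton and is a relative of the transglutaminases without their activity. Its log2 intensity was 5.82, 5.64 and 5.46 in samples 1, 2 and 3, a mean of 5.64 ± 0.18 (SD, n = 3). Sample 1 was the highest, a different top sample from that of its binding partner Slc4a1, and sample 3 stood 0.27 above the reference. Among the transglutaminases Tgm2 was at 8.49, 8.35 and 8.88 and Tgm1 at 5.89, 6.17 and 5.85. Tgm3 was below the reference on all 3 arrays, and Tgm5 at 5.44, 5.40 and 5.43 hardly varied.

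Rhag (gene ID 19743, probe set 17337706) encodes the Rh-associated glycoprotein, the ammonia-conducting partner of the Rh blood group protein. Its log2 intensity was 6.06, 6.33 and 5.28 in samples 1, 2 and 3, a mean of 5.89 ± 0.54 (SD, n = 3). Samples 1 and 2 lay 0.90 and 1.21 above the reference and sample 3 only 0.085 above it. The 2.06-fold range therefore ends at the detection limit, and without sample 3 it was 0.27 on the log2 scale in place of 1.04. The blood group protein itself, Rhd, had the same order at 7.01, 7.5 and 6.68. The epithelial relatives Rhbg and Rhcg were below the reference on every array.

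Klf1 (gene ID 16596, probe set 17503254) encodes the erythroid Kruppel-like factor, which activates the adult beta globin gene. Its log2 intensity was 5.65, 5.95 and 5.11 in samples 1, 2 and 3, a mean of 5.57 ± 0.43 (SD, n = 3). Sample 3 lay 0.092 below the reference. The 1.79-fold range, 0.84 on the log2 scale, was 0.30 without sample 3. Klf1 and Rhag shared the order of the samples, with sample 2 highest and sample 3 lowest. Other factors of the family went other ways: Klf2 was highest in sample 1 (8.46, 8.15 and 7.72), Klf3 in sample 3 (9.30, 9.54 and 9.88), and Klf4 in sample 2 (9.66, 10.26 and 9.87), while Klf6 at 9.88, 10.08 and 9.74 had the order of Klf1.

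Car2 (gene ID 12349, probe set 17396162) encodes carbonic anhydrase II, which interconverts carbon dioxide and bicarbonate in the red cell. Its log2 intensity was 8.79, 8.86 and 8.51 in samples 1, 2 and 3, a mean of 8.72 ± 0.19 (SD, n = 3), at least 3.31 above the reference. Sample 3 was the lowest, and samples 1 and 2 differed by 0.074. In the RefSeq gene order Car13, Car1, Car3 and Car2 follow each other with no other protein-coding gene between them. Car1, an enzyme abundant in red cells, was at 7.40, 8.16 and 7.27, and Car13 at 6.21, 6.27 and 5.25, both highest in sample 2 and lowest in sample 3 as Car2 was. Car3, the muscle and fat enzyme between them, was at 7.51, 6.96 and 7.59, with sample 2 as its lowest. The Car13 value in sample 3 was at the detection limit, and its range was 1.01.

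**Figure D2:**
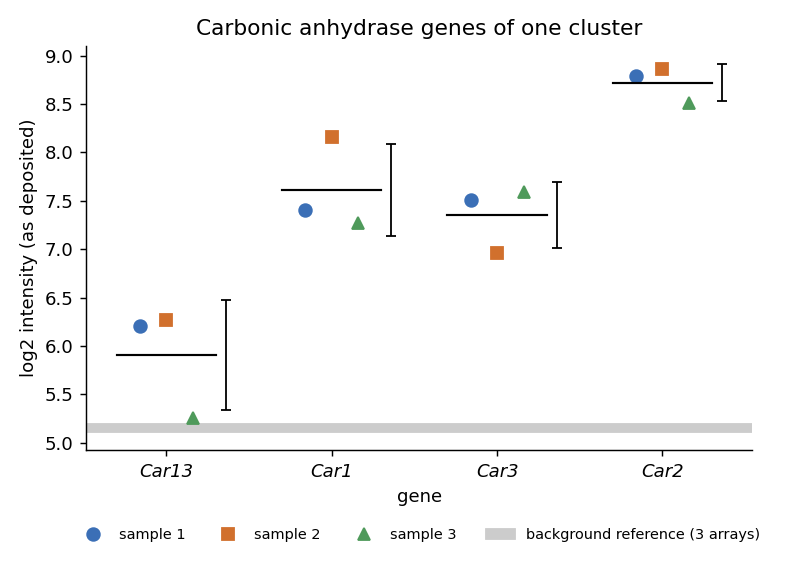
Log2 intensity (y axis) of 4 neighbouring carbonic anhydrase genes in samples 1, 2 and 3 (points), with the mean as a line and the SD over 3 samples as a bar; the grey band spans the background reference of the 3 arrays. Sample 2 is the highest for Car13, Car1 and Car2 and the lowest for Car3, at 6.96.

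Elsewhere in the family, Car5b of mitochondria was at 6.75, 6.96 and 6.30, again highest in sample 2 and lowest in sample 3. Car9, a target of hypoxia, was at 6.06, 5.98 and 6.14, Car12 was at 5.64, 5.63 and 5.71, and Car4 was below the reference on all 3 arrays. Osteoclasts also use Car2, and their markers had no common order. Acp5 was at 8.17, 7.18 and 7.61 and Ctsk at 8.84, 8.95 and 8.16, while Calcr and Oscar, the latter named after its values were seen, were below the reference throughout. Ocstamp was at 6.27, 5.69 and 6.68, Atp6v0d2 at 5.36, 4.26 and 4.27, and Mmp9, which neutrophils also make, at 9.02, 9.61 and 10.07. Atp6v0d2 passed the reference in sample 1 alone. Of 8 osteoclast genes 5 were detected on every array, beside 60.5% of 20658 named genes. The log2 of their summed intensity was 10.55, 10.63 and 10.81 in samples 1, 2 and 3, and without Mmp9 it was 9.93, 9.64 and 9.48, so that the order of the samples rests on that gene. The part of osteoclasts in the Car2 values was not tested.

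Over the 6 genes, sample 2 was the highest for 4 (Slc4a1, Klf1, Car2 and Rhag), beside 32.5% of all genes detected on at least 1 array. Sample 1 was the highest for 2 (Tfrc and Epb42), beside 28.8%, and sample 3 for none, beside 32.8%. Sample 3 was the lowest for 4 (Epb42, Klf1, Car2 and Rhag), beside 33.3%. The median deviation from the gene's own mean was 0.12, 0.20 and -0.20 in samples 1, 2 and 3, and over all detected genes it was -0.0070, 0 and -0.00062. With 6 genes these counts describe the genes and carry no test.

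Other genes of the red cell programme were taken from 7 lists of 85 genes. Of these 70 were measured and 62 detected on every array, beside 60.5% of all named genes. The shares of all genes highest in samples 1, 2 and 3, 28.8%, 32.5% and 32.8%, also stand beside the counts of each list below. All 13 measured genes of the red cell membrane list were detected on every array, and 11 of them were highest in sample 2. Every one of the 13 had a mean between 5.5 and 7.5, and of all detected genes with such a mean 33.8% were highest in sample 2. The 2 exceptions, named after their values were seen, were Xk (5.67, 5.62 and 5.98) and Slc14a1 (7.04, 7.41 and 7.46). The list's median deviation was -0.12, 0.28 and -0.17 in samples 1, 2 and 3.

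Single membrane genes differed by less than 1 on the log2 scale. Sptb, the beta chain of spectrin, was at 6.24, 6.68 and 6.52 in samples 1, 2 and 3, and Ank1, the ankyrin that ties spectrin to band 3, at 6.14, 6.53 and 6.19. The blood group proteins Ermap (6.88, 7.49 and 6.83) and Kel (6.13, 6.65 and 5.96) stood 0.66 and 0.69 above their lowest sample in sample 2. Gypc, a glycophorin, was at 5.68, 6.17 and 5.68, and the water channel Aqp1, which endothelium and other cells also make, at 7.38, 7.87 and 7.15. The widest range of the list was that of Rhd, at 0.83. In all of these sample 2 was the highest, as it was for Slc4a1 and Rhag.

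Genes of terminal maturation were also mostly highest in sample 2. Of 12 measured, 9 were highest in sample 2, beside 32.5% of all genes detected on at least 1 array. None was highest in sample 1, beside 28.8%. Cldn13, a mouse claudin of erythroid cells, was at 6.40, 6.92 and 6.12, and Ypel4 at 6.91, 7.43 and 6.91. Trim10, needed for late erythroblasts, was at 6.33, 6.75 and 6.28, and Tspo2 at 5.38, 5.60 and 5.23. Hemgn, a nuclear protein of blood precursors, was at 7.14, 7.17 and 6.51, so that sample 3 was low and samples 1 and 2 close together, as for Car2. Trim58, a ubiquitin ligase of enucleation, passed the reference only in sample 2 (4.86, 5.22 and 4.87). It entered the 9 through that sample alone, while 11 of the 12 were detected on every array. The 3 genes highest in sample 3, Bpgm, Mkrn1 and Prdx2, were named after their values were seen.

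**Figure D3:**
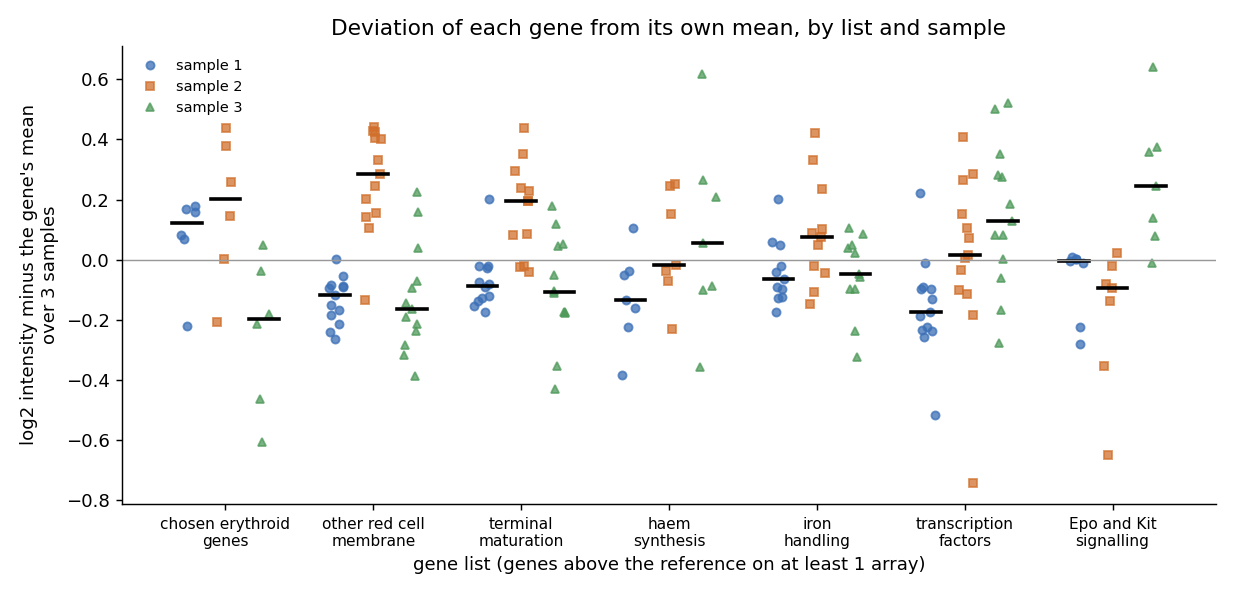
Log2 intensity of each gene minus its own mean over 3 samples (y axis) by gene list (x axis) and sample (points); black bars are list medians. In the membrane list the sample 2 median is 0.28 and the others are -0.12 and -0.17, while in the signalling list sample 3 has the highest median, 0.25.

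Haem synthesis did not share that order. All 7 measured enzymes other than Alas2 were detected on every array, 4 highest in sample 3 and 3 in sample 2. Alas1, the first enzyme of the pathway in cells other than erythroblasts, was at 7.63, 7.78 and 8.63, a range of 1.00 with sample 3 on top. Alad (6.87, 6.93 and 7.21), Uros (5.65, 5.67 and 5.74) and Ppox (6.97, 7.15 and 7.46) were also highest there. Cpox, the mitochondrial oxidase of coproporphyrinogen, was at 7.62, 7.76 and 7.15, and Urod at 7.70, 7.90 and 7.65, both with the order of Klf1.

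Among 12 measured genes of iron handling, 11 were detected on every array and 6 were highest in sample 2. Slc25a37, or mitoferrin 1, which brings iron into the mitochondria of erythroblasts, was at 8.92, 9.44 and 8.70, the widest range of the list at 0.74. Its partner Abcb10 was at 6.37, 6.78 and 6.48, and Steap3, the reductase of transferrin-bound iron, at 6.58, 7.0 and 6.43, both highest in sample 2. The iron transporter Slc11a2 (6.93, 7.07 and 6.93) and the glycine transporter Slc25a38 (6.55, 6.35 and 6.58) varied less. Tfr2, the paralogue of Tfrc, was below the reference with 1 identical value of 4.23 on all 3 arrays. Of the globins 6 of 12 genes were measured alone, and the adult alpha and beta chains were not analysed here. The embryonic chains Hba-x, Hbb-y and Hbb-bh1 and the further chain Hbb-bh2 were below the reference on every array, at 3.88 or less, while the theta chains Hbq1a (6.14, 5.55 and 5.65) and Hbq1b (6.49, 6.30 and 6.58) were detected.

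Some regulators of the lineage stood near the detection limit. Gata1 was at 4.95, 5.32 and 4.88 and passed the reference in sample 2 alone. Tal1, a partner of Gata1, was at 5.05, 5.56 and 5.22. Gfi1b, a repressor of erythroid and platelet precursors, was at 6.75, 7.29 and 6.61, and Zfpm1, the cofactor FOG1, at 6.75, 7.04 and 7.01. All 4 were highest in sample 2. Bcl11a, a repressor of embryonic globin that B cells and dendritic cells also make, was at 7.82, 6.85 and 8.12, and Nfe2, shared with platelets and granulocytes, at 6.23, 6.76 and 7.25, both highest in sample 3. Over the list of 13 the highest sample was sample 2 for 6 genes and sample 3 for 7, beside 32.5% and 32.8% of all detected genes. Gata1 entered the 6 through sample 2 alone, and 11 of the 13 were detected on every array.

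Signalling genes had sample 3 highest in 6 of 7 cases. The erythropoietin receptor Epor was the exception and hardly varied, at 5.89, 5.92 and 5.89, with equal values in samples 1 and 3. Kit, the receptor for stem cell factor, was at 7.31, 7.5 and 7.97, and the kinase Jak2 at 9.17, 8.82 and 9.53. Stat5a was at 6.92, 7.12 and 7.39 and Stat5b at 8.03, 7.88 and 8.16. Cish, a feedback inhibitor induced through Stat5, had the widest range of the list, 1.29, at 7.66, 7.0 and 8.30. These genes serve many blood cells.

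Markers of other cells differed between the same samples. Of all genes detected on at least 1 array, 33.3% were lowest in sample 3, which stands beside the counts of lowest samples here. Sample 2 was the highest and sample 3 the lowest for all 8 fibroblast genes, with Pdgfra at 8.55, 9.24 and 7.82 and Dcn at 11.64, 12.02 and 11.20. Lum (10.5, 10.83 and 9.91), Col1a1 (10.23, 10.43 and 9.79), Pi16 (9.40, 10.68 and 8.94) and Dpt (11.77, 12.04 and 11.07) were among them, and the log2 of the summed intensity was 13.76, 14.14 and 13.2 in samples 1, 2 and 3. Their order was that of Klf1, Rhag and Car2. Of 7 measured genes of macrophages that take up red cells and haemoglobin, 6 were detected on at least 1 array. Of these 6 genes 5 were lowest in sample 3. Cd163, the haemoglobin scavenger receptor, was at 8.0, 8.68 and 6.27, and the summed level of the 7 was 10.85, 10.87 and 10.10. Spic, a factor of iron-recycling macrophages, was at 5.82, 5.82 and 4.82, Siglec1 was at 7.48, 7.59 and 6.40, Vcam1 at 8.36, 8.14 and 8.41 was highest in sample 3, and Cd5l, named after its values were seen, was below the reference. Of 7 platelet genes 4 were detected on every array, beside 60.5% of all named genes, and the platelet genes had no common order. Pf4, which macrophages can also make, was at 9.31, 9.38 and 8.06, while Gp9 was at 4.86, 5.19 and 6.26. Ppbp (5.5, 5.31 and 5.39) and Itga2b (5.5, 5.43 and 5.21) were highest in sample 1, and Gp5 was below the reference. The summed level was 9.74, 9.77 and 9.01, and without Pf4 it was 7.78, 7.67 and 7.95, with sample 3 as the highest in place of the lowest.

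Granulocyte precursor genes had another order. Sample 3 was the highest and sample 1 the lowest for all 8. Of the 13636 genes detected on at least 1 array, 4259 were lowest in sample 1. Elane was at 9.33, 9.93 and 10.81, Mpo at 9.75, 10.56 and 10.99, and Prtn3 at 7.98, 8.22 and 9.22. Ctsg was at 9.54, 9.65 and 10.21 and Fcnb at 7.82, 8.61 and 9.57, with a summed level of 11.69, 12.17 and 12.88. Endothelial genes were highest in sample 3 for 7 of 8, with Cdh5 at 6.17, 6.75 and 7.81 and a summed level of 9.08, 8.88 and 9.81. Pecam1, whose protein was a negative marker in the sort, was at 8.02, 7.20 and 8.25, and Kdr at 5.47, 5.21 and 6.09. Emcn at 4.77, 4.49 and 6.37 and Cldn5 at 4.35, 4.28 and 5.37 passed the reference in sample 3 alone. These 2 genes entered the 7 through that sample. The exception was Tek, at 5.31, 5.93 and 5.75. Blood progenitor genes had no common order, with Cd34, also a fibroblast gene, at 9.68, 10.54 and 8.58, and Flt3 at 6.74, 6.66 and 8.36. Meis1 was at 6.86, 7.11 and 6.57, Ctla2a at 7.86, 7.23 and 7.44, and Hoxa9 was below the reference. The summed level was 10.48, 10.98 and 10.15, and without Cd34 it was 9.26, 9.04 and 9.55, with samples 2 and 3 trading places. The part of these cells in the erythroid values was not tested.

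**Figure D4:**
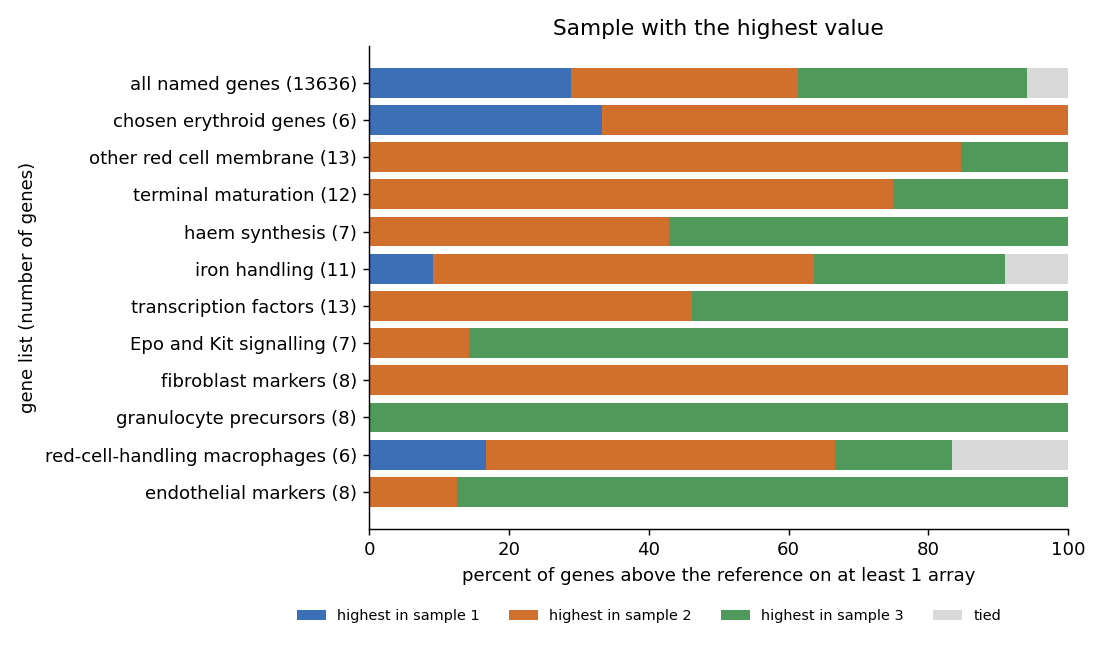
Percent of genes (x axis) whose highest value was in sample 1, 2 or 3, or tied at the top, for each gene list (y axis, number of genes detected on at least 1 array in brackets). The top bar gives all 13636 genes. Sample 2 takes 11 of 13 membrane genes and all 8 fibroblast genes, and sample 3 takes all 8 granulocyte precursor genes. Among the genes of the lists drawn here Trim58, Gata1, Emcn and Cldn5 were detected only on the array where they were highest.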

How the data were processed

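The deposited table holds the authors' log2 intensities of 31873 probe sets. Partek is among the tools per the submitters' processing notes, with no version; the sources used here do not give the background correction, normalization, summarization or genome build. Values from 2.00 to 13.18 show a log2 scale. Values of 4938 probe sets (15.5%) were equal on at least 2 arrays. Per the platform annotation 23094 probe sets had 1 symbol, 1764 several and 7015 none here; only the first were used, and a gene took the probe set with the highest mean. Among 5 listed genes with more than 1 probe set, the highest sample was the same in each set for 5. Genes detected on no array were left out of ranges and orders, and a tie for the highest counted for no sample. The members and lists were chosen with earlier results of these data known. Named genes were the 8 members, their paralogues, the first 4 measured genes and 3 widest ranges of each other list, and the 10 nearest profiles. Promoter words were searched in the 250 bases before RefSeq starts. The measures were tested on simulated data. Alternatives changed the detection level, scaling, probe set summary, range limit and filter, and left out each sample. Python 3.11.15, pandas 2.3.3 and NumPy 2.4.6 were used.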

Additional observations from a re-analysis of the deposited data

How the results depend on the processing

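With 3 samples of 1 group no value here has a test, and the low levels of Epb42, Rhag and Klf1 limit what their ranges can show. Of the 8 named genes 6 were measured, and 5 of these were detected on every array. The count was 3 (Slc4a1, Tfrc and Car2) with the 99th percentile as reference, and 4 with the array median, where Rhag was also not detected. It was 6 with the 90th percentile, with the mean over arrays and without sample 3. At the 99th percentile the genes with a range above 1 were 0, those highest in sample 1 were 1 and those highest in sample 2 were 2, since fewer genes were considered. With a limit of 1.5 on the range 0 genes passed, and with 0.5 there were 2. Leaving out each sample in turn gave 0 to 1 genes with a range above 1. It gave 2 to 5 highest in sample 1, the 5 without sample 2, and 1 highest in sample 3 without sample 1 or sample 2. The range was 0.18 for Slc4a1 and 0.11 for Tfrc without sample 2, and 0.18 for Epb42 and 0.074 for Car2 without sample 3. Shifting the arrays to a common median and quantile normalization changed no count of the 6 genes and moved a range by at most 0.047. Further alternatives were chosen after seeing the data, as were the sums without 1 gene and the centred profile. In these alternatives 11 to 12 membrane genes and 9 to 11 maturation genes were highest in sample 2 without sample 1 or sample 3. At the 99th percentile they were 6 and 7, with fewer genes considered. That level was 6.37, 6.58 and 6.49 in samples 1, 2 and 3. Some genes, such as Kel and Trim10, passed it in sample 2 alone. Counts with 1 sample left out compare 2 arrays, so that the shares of all genes given for 3 arrays do not apply to them. No paired analysis was possible because the labels give 1 group.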

Other observations

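The 10 genes outside all lists whose deviations over the 3 samples lay nearest to the median of the 6 erythroid genes were Pcbp4, Cx3cl1, Colgalt1, Smad5, Pon2, Mgat3, Zfp790, Wasl, Poldip2 and Tmem263. The median profile does not sum to 0 while each gene's deviations do, which puts every gene at least 0.072 from it on the log2 scale. From the profile centred on 0 the same 10 genes were nearest, at Euclidean distances of 0.0019 to 0.017 over 3 samples. Cx3cl1, a chemokine anchored in the membrane, was at 7.11, 7.19 and 6.79 in samples 1, 2 and 3, and Smad5, a transcription factor of the bone morphogenetic protein pathway, at 6.70, 6.78 and 6.37. The genes were taken from 12376 detected on every array, and the choice fixes the order of their samples.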
